A study of Mus musculus with 6 samples.

Results

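Transcripts of the regulators of G protein signalling, the RGS family, were compared in naive CD4 T cells that lacked or carried the surface protein Ly-6C. The genes described are Rgs1, Rgs2, Rgs3, Rgs10, Rgs14, Rgs16, Rgs18 and Rgs19, chosen by gene symbol among probe sets with a single symbol, and where several probe sets read a gene, the brightest on average over all 6 arrays was kept. Of these 8 genes 7 were measured, among 19938 genes in all. No probe set is listed under Rgs10 in the platform annotation used here, so that gene has no values. The mean level over the 6 arrays, which chose the probe set of Rgs3, is given only as a description.

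Foxp3-GFP mice on the C57BL/6 background, 6 weeks old, gave the cells, which were taken from their peripheral lymph nodes. In this strain GFP marks cells that express Foxp3, the defining factor of regulatory T cells (Tregs). Both groups were sorted as CD4+, CD8-, TCRβ+, CD44lo, CD25- and Foxp3-, and were then separated as Ly-6C- or Ly-6C+. Each group has 3 arrays that the labels call biological replicates, without saying which or how many mice gave the cells, so p-values measure the spread between these arrays and that spread may be partly technical. Values are log2 expression, a positive difference means more signal in Ly-6C-negative cells, and 6 arrays limit the precision of each.

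The 2 probe sets shared by Ly6c1 and Ly6c2 were 9.03-fold and 6.03-fold lower in the Ly-6C-negative cells (limma adjusted p = 3.94e-05 and 0.000675 over all probe sets), so the arrays followed the sort. The defining T cell markers Cd3e and Cd4 measured 11.76 and 10.50 in Ly-6C-negative cells against 11.78 and 10.59 in Ly-6C-positive cells. On the first principal component, which held 34.6% of the variance, Ly-6C-negative replicate 2 scored 19.9 and the other arrays between -10.0 and -0.26.

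RGS proteins shorten signals from G protein-coupled receptors. A receptor that has bound its ligand loads GTP onto a G alpha subunit, and the RGS domain speeds the hydrolysis of that GTP, which returns the G protein to its resting state. In lymphocytes these receptors include those for chemokines and for sphingosine-1-phosphate, which guide T cells into, through and out of lymph nodes, and several RGS genes are known to be induced when lymphocytes are activated.

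The windows upstream of the transcription starts of Rgs16 and Rgs3 are shown because these genes had the largest differences of the members measured. Each is the 250 bases before an annotated start, read 5′ to 3′ on the gene's strand from the RefSeq promoter table of GRCm38.p6, with matches to the searched motifs in capitals. The window of Rgs16 lies at chr1:153740103-153740352 on the plus strand. Rgs3 has 2 listed starts, with windows at chr4:62559597-62559846 and chr4:62619422-62619671, both on the plus strand.
Rgs16: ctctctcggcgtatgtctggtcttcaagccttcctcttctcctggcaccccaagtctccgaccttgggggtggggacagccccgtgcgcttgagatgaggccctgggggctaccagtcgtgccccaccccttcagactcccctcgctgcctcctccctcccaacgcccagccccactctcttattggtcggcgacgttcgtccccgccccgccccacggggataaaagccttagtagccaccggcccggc
Rgs3 first start: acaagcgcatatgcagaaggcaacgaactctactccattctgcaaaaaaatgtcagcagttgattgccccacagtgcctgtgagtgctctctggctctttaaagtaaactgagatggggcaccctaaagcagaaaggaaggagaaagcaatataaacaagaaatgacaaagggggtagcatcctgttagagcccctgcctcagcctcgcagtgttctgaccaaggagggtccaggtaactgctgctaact
Rgs3 second start: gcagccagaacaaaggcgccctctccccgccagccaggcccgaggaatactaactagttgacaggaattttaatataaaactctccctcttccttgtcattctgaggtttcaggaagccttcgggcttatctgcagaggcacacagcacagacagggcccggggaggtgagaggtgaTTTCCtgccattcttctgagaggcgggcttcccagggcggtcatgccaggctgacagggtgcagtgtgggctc

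The motifs searched on both strands were the cAMP response element TGACGTCA, the AP-1 site TGANTCA and the NFAT core GGAAA, and matches of different motifs were allowed to overlap. The window of Rgs16 held none of them and had a G and C content of 66.4%. The second Rgs3 window held 1 NFAT core, 68 bases before the start and on the opposite strand, shown as TTTCC, and the first held no match; their G and C contents were 56.8% and 48.4%. The median over all windows of the table was 52.4%. The table holds 8 windows of 5 members, of which 3 windows held an NFAT core, 0 an AP-1 site and 0 a cAMP response element. An NFAT core occurred in 55.6%, an AP-1 site in 6.75% and a cAMP response element in 1.55% of all 32851 windows. A match is a stretch of letters and not a bound site.

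Rgs16 and Rgs3 were the members with the largest differences between the groups, and both measured more in every Ly-6C-negative array than in any Ly-6C-positive array. Both encode GTPase-activating proteins for the Gi and Gq classes of G alpha, and both have been studied as brakes on chemokine responses. Neither passed the threshold of adjusted p 0.05 over all genes. Of the 7 members measured 0 passed, while 29 of 19938 genes did, which is 0.145%. At an unadjusted p under 0.05 the same limma fit gave 2 members, Rgs3 and Rgs16, against 6.71% of all genes. At an adjusted p under 0.1 it gave the same 2, against 0.201% of all genes.

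Rgs16 measured 6.89, 6.81 and 6.81 in Ly-6C-negative replicates 1, 2 and 3 and 6.47, 6.41 and 6.43 in the Ly-6C-positive ones. The groups were separated by more than the spread inside either of them. Their means were 6.84 ± 0.044 (SD, n = 3) and 6.44 ± 0.028 (SD, n = 3), a difference of 0.40 (standard error 0.063, limma adjusted p = 0.0634). This is 1.32-fold, with a 95% interval of 1.20 to 1.46 that is not adjusted for the number of genes. Between arrays with the same replicate number the difference was 0.42, 0.40 and 0.38.

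Rgs3 measured 8.02, 8.10 and 7.999 in Ly-6C-negative replicates 1, 2 and 3 and 7.67, 7.64 and 7.58 in the Ly-6C-positive ones. Here too the lowest Ly-6C-negative array lay above the highest Ly-6C-positive one. The means were 8.04 ± 0.052 (SD, n = 3) and 7.63 ± 0.042 (SD, n = 3), a difference of 0.41 (standard error 0.065, limma adjusted p = 0.0650), or 1.33-fold with a 95% interval of 1.20 to 1.47. The same-numbered arrays differed by 0.35, 0.46 and 0.41. Without Ly-6C-negative replicate 2, the array apart on the first component, the difference was 0.38 for Rgs3 and 0.41 for Rgs16 (limma adjusted p = 0.0920 and 0.0652).

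Rgs3 is read by a second probe set, 10505326, whose difference was smaller. It measured 6.62, 6.63 and 6.66 in Ly-6C-negative cells and 6.40, 6.49 and 6.56 in Ly-6C-positive cells. The groups again did not overlap, but the difference was 0.15 (standard error 0.066, limma adjusted p = 0.754 over all probe sets), against 0.41 for the kept probe set 10607113. The annotation lists 11 accessions for the former and 12 for the latter, with 4 in common, and which transcripts each probe set reads was not resolved. With both probe sets averaged, Rgs3 differed by 0.28 (limma adjusted p = 0.278).

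**Figure D1:**
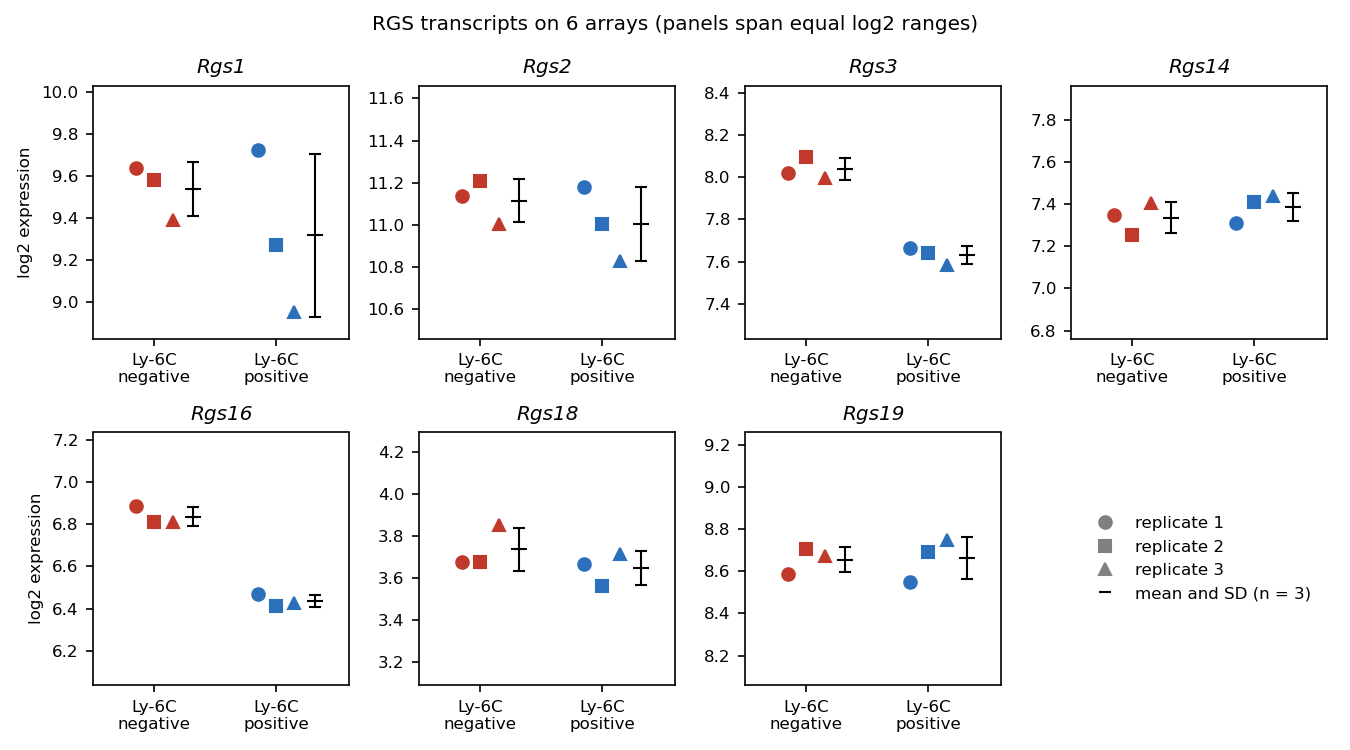
Log2 expression (y axis) of the 7 measured members on each of the 6 arrays, Ly-6C-negative in red and Ly-6C-positive in blue, with marker shape for the replicate number and black bars for the mean and SD (n = 3). The groups are apart for Rgs3 and Rgs16 and overlap for the other 5, and Rgs1 has the widest spread, from 8.95 to 9.72 in Ly-6C-positive cells.

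The 2 genes crossed the threshold under some settings. With each array's median subtracted, which moved the median difference of all genes by 0.023, the limma adjusted p was 0.0415 for Rgs16 and 0.0474 for Rgs3. With array weights it was 0.0220 and 0.0353. Blocking on replicate number, with same-numbered arrays taken as pairs, gave both a limma adjusted p of 0.0942. Leaving out single arrays gave 0.0652 to 0.433 for Rgs16 and 0.0920 to 0.413 for Rgs3, so neither passed in any of those 6 fits, which have fewer arrays. Over all 14 alternatives the difference of Rgs16 lay between 0.38 and 0.42 and that of Rgs3 between 0.28 and 0.43, the lowest being the average of its probe sets.

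**Figure D2:**
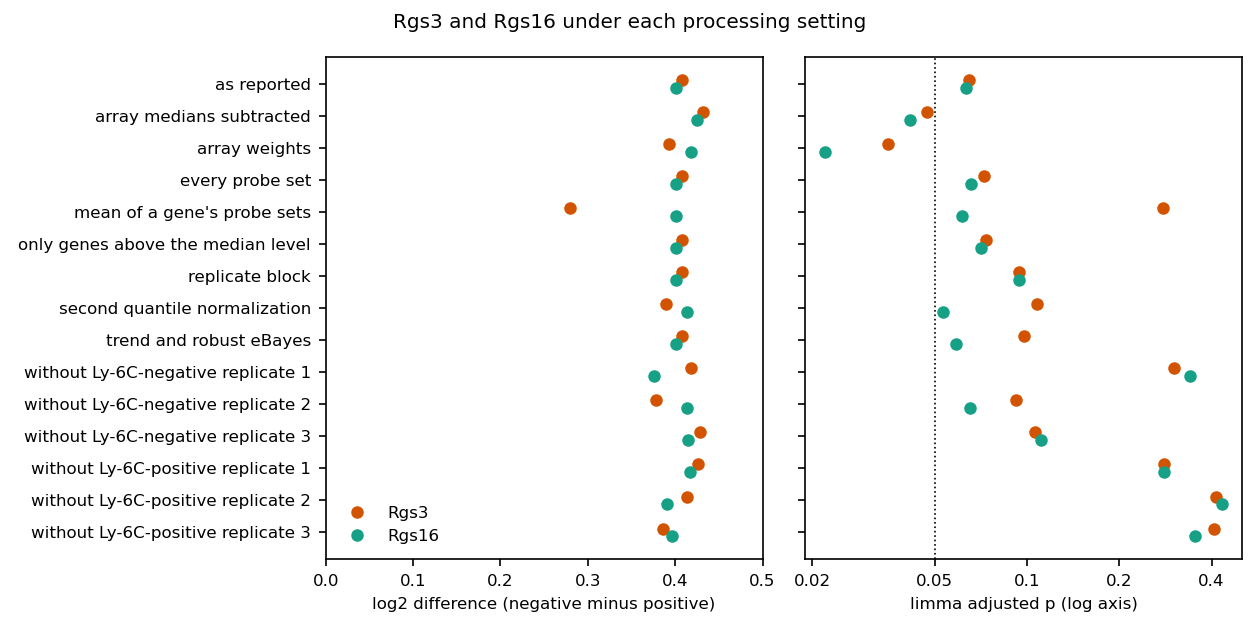
The log2 difference (left) and the limma adjusted p on a log axis (right) of Rgs3 and Rgs16 under each processing setting, with the 0.05 threshold as a dotted line. Both pass with array medians subtracted and with array weights, and the size of the difference moves most for Rgs3 when its probe sets are averaged, to 0.28.

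Rgs1 and Rgs2 encode small RGS proteins that are induced in activated lymphocytes, Rgs1 known for dampening chemokine receptors and Rgs2 for acting on Gq. Rgs1 measured 9.64, 9.58 and 9.39 in Ly-6C-negative replicates 1, 2 and 3 and 9.72, 9.27 and 8.95 in the Ly-6C-positive ones. The highest and the lowest of the 6 arrays were both Ly-6C-positive, so the groups overlapped. The difference was 0.22 (standard error 0.16, limma adjusted p = 0.884) and its 95% interval ran from -0.15 to 0.59. Without Ly-6C-positive replicate 1 it was 0.42, with groups that no longer overlapped (limma adjusted p = 0.777), and without Ly-6C-positive replicate 3 it was 0.037. Those 2 arrays therefore set the size of this difference.

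Rgs2 measured 11.14, 11.21 and 11.00 in Ly-6C-negative replicates 1, 2 and 3 and 11.18, 11.00 and 10.83 in the Ly-6C-positive ones. As for Rgs1, the Ly-6C-positive replicate 3 was the lowest array and Ly-6C-positive replicate 1 lay among the Ly-6C-negative ones, so the groups overlapped. The difference was 0.11 with a standard error of 0.097 and a 95% interval of -0.11 to 0.33 (limma adjusted p = 0.902). It was 0.20 without Ly-6C-positive replicate 1, 0.17 without Ly-6C-negative replicate 3, 0.064 without Ly-6C-negative replicate 2 and 0.023 without Ly-6C-positive replicate 3.

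Both genes are known to respond to tissue handling, so a list of 18 measured handling-stress genes is given beside them. Their mean log2 value per array lay between 8.41 and 8.58 in Ly-6C-negative cells and between 8.49 and 8.56 in Ly-6C-positive cells. It was 8.46, 8.58 and 8.41 in Ly-6C-negative replicates 1, 2 and 3 and 8.55, 8.56 and 8.49 in the Ly-6C-positive ones. Ly-6C-positive replicate 1 was the array highest in Rgs1 and Ly-6C-positive replicate 3 the lowest, but the order of all arrays differed between this mean and Rgs1. Of the 18 genes 6 lay above 0 and 12 below, with a median difference of -0.065, and 0 passed the limma threshold, with 1 at an unadjusted p under 0.05. The immediate early genes Jun and Fosb differed by -0.30 and -0.21, Atf3 by -0.13 and Dusp1 by 0.11. The part of handling in the values of Rgs1 and Rgs2 was not tested.

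Rgs14 and Rgs19 gave differences close to 0. Rgs14 carries, beside its RGS domain, domains that bind Rap proteins and a GoLoco motif that holds Gi in its GDP-bound state. It measured 7.35, 7.26 and 7.40 in Ly-6C-negative replicates 1, 2 and 3 and 7.31, 7.41 and 7.44 in the Ly-6C-positive ones. The groups overlapped, with a difference of -0.050, a standard error of 0.071 and a 95% interval of -0.21 to 0.11 (limma adjusted p = 0.944). It lay between -0.088, without Ly-6C-positive replicate 1, and -0.0090, without Ly-6C-negative replicate 2, and was -0.084 without Ly-6C-negative replicate 3 and -0.024 without Ly-6C-positive replicate 3.

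Rgs19, also known as GAIP, acts on the Gi class. It measured 8.59, 8.71 and 8.67 in Ly-6C-negative replicates 1, 2 and 3 against 8.55, 8.69 and 8.75 in the Ly-6C-positive ones. The arrays of both groups were interleaved. Its difference was -0.0075, with a standard error of 0.075 and a 95% interval of -0.18 to 0.16 (limma adjusted p = 0.996), and its sign turned under 4 of 14 alternatives.

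Rgs18, a gene best known from megakaryocytes and platelets, gave a dim signal. It measured 3.68, 3.68 and 3.85 in Ly-6C-negative replicates 1, 2 and 3 and 3.67, 3.56 and 3.71 in the Ly-6C-positive ones. Its mean of 3.69 stood at percentile 3.65 of all gene means. Probe sets bind with different strength, so this place is a description of the signal and not of transcript number. The difference was 0.088 (standard error 0.077, limma adjusted p = 0.902). With an array left out it lay between 0.029, without Ly-6C-negative replicate 3, and 0.12, without Ly-6C-positive replicate 3. It was 0.045 without Ly-6C-positive replicate 2. Of 6 measured platelet and megakaryocyte markers 0 passed and 0 had an unadjusted p under 0.05 in the limma fit, with Pf4 at 3.74 against 3.83, and their summed linear signal was 391 to 428 in Ly-6C-negative and 415 to 439 in Ly-6C-positive cells.

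As a set, 5 of the 7 measured members lay above 0 and 2 below, with a median difference of 0.11, against a median of -0.0048 over all genes. Full separation of the groups was seen for 2 of the 7, Rgs3 and Rgs16, both higher in Ly-6C-negative cells, against 12.6% of all genes separated in either direction. The members were listed with earlier results of these data known, so these counts describe them and no more.

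The remaining 13 measured Rgs genes had differences between -0.22 and 0.090, with a median of -0.0029. None passed in the limma fit, with 6 above 0 and 7 below, and 0 had an unadjusted p under 0.05. Rgs12, a large family member with PDZ and Rap-binding domains, had groups that did not overlap, at 5.90, 5.86 and 5.92 in Ly-6C-negative cells against 6.02, 6.03 and 5.99. Its difference was -0.12 (limma adjusted p = 0.801). Rgs21 had the lowest difference, -0.22 (limma adjusted p = 0.795), with groups that overlapped.

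**Figure D3:**
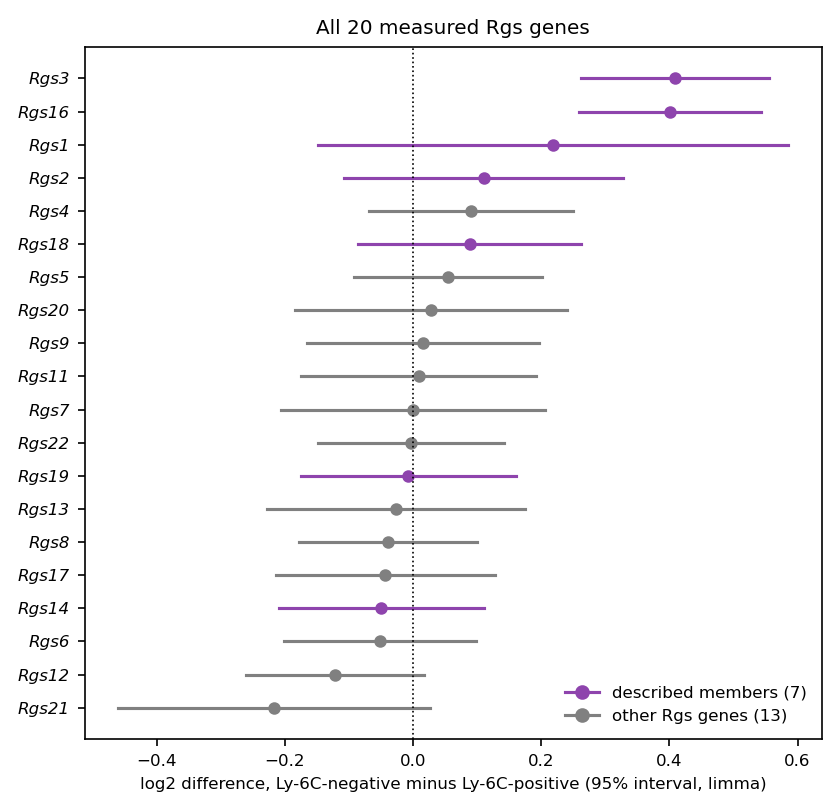
Log2 difference between the groups (x axis, above 0 for more in Ly-6C-negative cells), with its unadjusted 95% interval for all 20 measured Rgs genes, the 7 described members in purple and the other 13 in grey. Rgs3 and Rgs16 lie highest, at 0.41 and 0.40, and are the only ones of the 20 whose intervals do not reach 0.

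Of the 8 members 4 lie on mouse chromosome 1. In the order of protein-coding genes in the RefSeq table of GRCm38.p6, Rgs2, Rgs13, Rgs1, Rgs21 and Rgs18 follow each other directly, and Rgs16 lies elsewhere on that chromosome, next to Rgs8. Along that run the differences were 0.11 for Rgs2, -0.027 for Rgs13, 0.22 for Rgs1, -0.22 for Rgs21 and 0.088 for Rgs18, and none passed. Rgs8, a coding neighbour of Rgs16, differed by -0.039 (limma adjusted p = 0.948), with 5.94, 5.94 and 5.90 in Ly-6C-negative cells and 5.97, 5.93 and 5.99 in Ly-6C-positive cells. Rgs3 lies on chromosome 4, Rgs10 on 7, Rgs14 on 13 and Rgs19 on 2.

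Among the listed G protein-coupled receptor genes 2 passed the test, against 0.145% of all genes, both with more signal where Ly-6C was absent. The list was chosen with earlier results of these data known, so its counts are descriptions. Of 40 measured receptor genes 27 lay above 0 and 13 below, with a median difference of 0.043. In the limma fit 8 of the 40 had an unadjusted p under 0.05, against 6.71% of all genes. Ccr8, a chemokine receptor gene, measured 5.85 against 5.20, a difference of 0.65 (limma adjusted p = 0.0312). Gpr83, a receptor gene known from Tregs, measured 7.72 against 7.15, a difference of 0.56 (limma adjusted p = 0.0325). Each of them passed in 1 of 6 fits with an array left out, that without Ly-6C-negative replicate 2, and in the others the limma adjusted p reached 0.217 for Ccr8 and 0.199 for Gpr83. The prostaglandin receptor gene Ptger2 differed by 0.27 and Ccr6 by -0.20, and neither passed. The receptors that guide naive T cells gave small differences, 0.017 for Ccr7, -0.00077 for Cxcr4, 0.12 for S1pr1 and 0.16 for Gpr183, and none of these 4 passed. Gpr183 was among the 8 with an unadjusted p under 0.05 in the limma fit.

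The G proteins themselves did not pass the test. Of 12 measured G alpha genes 6 lay above 0 and 6 below, with a median of -0.0036, a lowest value of -0.21 for Gna14 and a highest of 0.18 for Gna11. The Gi genes Gnai2 and Gnai3 differed by 0.097 and -0.011, and Gnaq by 0.10. Of 16 G beta and gamma genes 6 lay above 0 and 10 below, with a median of -0.018, and values from -0.16 for Gnb2 to 0.19 for Gng10. Gng10 differed by 0.037 without Ly-6C-negative replicate 2, where the highest value was 0.12 for Gnb4. In both lists 0 members had an adjusted p under 0.05, and 1 of 12 and 0 of 16 had an unadjusted p under 0.05 in the same limma fit, against 6.71% of all genes.

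Genes that act beside or after the G proteins did not pass either. Of 6 measured receptor kinases and arrestins, which switch off receptors, 5 lay above 0 with a median of 0.081, Grk6 at 0.17 among them. Of 34 effector genes 20 lay above 0 with a median of 0.018, with values from -0.21 to 0.31, the highest being that of Crem, a cAMP-responsive factor, while the phosphodiesterase gene Pde7a differed by 0.28. Of 14 other genes with RGS or GoLoco domains or related roles 6 lay above 0 with a median of -0.010. Gpsm2, which holds Gi through GoLoco motifs, had the lowest value there, -0.31 (limma adjusted p = 0.413). Each of these 3 lists had 0 members past the threshold and 1 with an unadjusted p under 0.05 in that limma fit, where 6.71% of all genes had one.

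Genes linked to T cell receptor signalling, listed as early T cell receptor genes, and genes linked to Tregs were measured because several RGS genes are induced in activated T cells. The first list mixes factors such as Egr1 and Nr4a1 with surface receptor genes such as Izumo1r, Cd200, Cd5 and Cd6. Its counts therefore do not measure an early response. Both lists were chosen with earlier results of these data known, so their counts describe them and no more. Of 20 genes of the first list 18 lay above 0 with a median of 0.26. An unadjusted p under 0.05 in the limma fit was reached by 11, against 6.71% of all genes. At the threshold 3 passed, against 0.145% of all genes: Izumo1r at 1.03, Cd200 at 0.86 and Tnfrsf9, a costimulatory receptor gene, at 0.50 (limma adjusted p = 0.00200, 0.0112 and 0.0325). Without Ly-6C-negative replicate 2 it was 6 genes, without replicate 3 of either group 2, and without any of the other 3 arrays 1, Izumo1r, which passed in all 6 of these fits. Blocking on replicate number gave 5, adding Icos at 0.64 and Ubash3b at 0.65 (limma adjusted p = 0.0204 and 0.0115). Among other genes of the first list, Nr4a1 differed by 0.34, Nr4a2 by 0.23, Myc by 0.12, Egr1 by 0.11 and Nr4a3 by 0.088. Egr3 lay at 0.068, Egr2 at 0.057 and Cd69 at -0.024, and none of these genes passed without the block. Of 15 Treg-linked genes 13 lay above 0 with a median of 0.33, and 9 had an unadjusted p under 0.05 in the limma fit, against 6.71% of all genes. The threshold was passed by 5, against 0.145% of all genes: Ctla4 at 1.34, Il2rb at 1.12, Izumo1r, Ikzf2 at 0.63 and Gpr83. Foxp3 measured 6.67 against 6.66. With an array left out 2 to 5 genes of the list passed, the 2 without Ly-6C-negative replicate 1 or Ly-6C-positive replicate 2 or 3, and Il2rb and Izumo1r passed in all 6 fits. Blocking on replicate number gave 6, adding Nt5e at 0.73 (limma adjusted p = 0.00602, against 0.427 without the block). The summed linear signal of the Treg-linked list was 3138 to 3412 in Ly-6C-negative and 2114 to 2156 in Ly-6C-positive cells. Izumo1r stands in both lists. Most genes of both lists, 18 of 20 and 13 of 15, lay above 0 as Rgs3 and Rgs16 did, and their part in those differences was not tested.

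**Figure D4:**
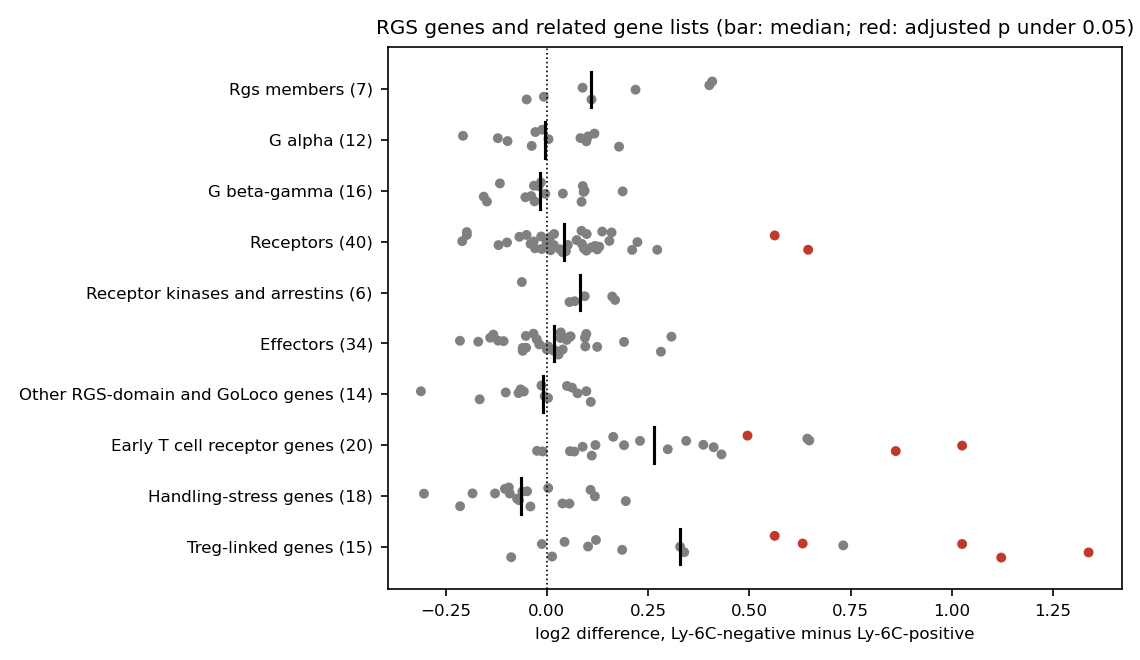
Log2 difference between the groups (x axis, above 0 for more in Ly-6C-negative cells), of each gene in the RGS members and in 9 related lists, with the number measured in brackets, a black bar at the median and red for a limma adjusted p under 0.05. The median is 0.11 for the members, 0.26 for early T cell receptor genes, 0.33 for Treg-linked genes and within 0.1 of 0 for the other 7 lists.

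Markers of follicular helper T cells, activated CD4 cells that the sort on low CD44 should largely leave out, also lay higher in Ly-6C-negative cells. All 6 of 6 were above 0 with a median of 0.26 and 0 passed, with 4 at an unadjusted p under 0.05 in the limma fit, against 6.71% of all genes. These 4 were Il21 at 0.38, Bcl6 at 0.30, Maf at 0.29 and Cxcr5 at 0.22, while Tox2 differed by 0.10 and Pdcd1 by 0.070. Il21 measured 4.55 against 4.16 and Cxcr5 4.54 against 4.31, both dim, as the 10th percentile of gene means was 4.30. The summed linear signal of the 6 markers was 526 to 551 in Ly-6C-negative and 443 to 476 in Ly-6C-positive cells. Memory and effector markers had a median of -0.0075 over 8 genes, 3 above 0 and 5 below, and a sum of 1640 to 2024 against 1864 to 2136. Of these genes 0 passed and 3 had an unadjusted p under 0.05 in the limma fit, against 6.71% of all genes. The 3 were Lgals1 at -0.26, Cd44 at -0.25 and Ccl5 at 0.59, and Ccl5 was at 0.31 without Ly-6C-negative replicate 2. The part of follicular helper, memory and effector T cells in the differences of Rgs3 and Rgs16 was not tested. These marker lists were chosen with earlier results of these data known, so their counts are descriptions. In sorted bulk cells, more cells with a transcript and more transcript per cell cannot be told apart.

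Markers of other cell types gave medians between -0.075 and 0.043, and 0 members of these lists passed. An unadjusted p under 0.05 in the limma fit was reached by 1 T cell gene and 1 monocyte, macrophage and neutrophil gene, and by 0 genes of the other lists. The 8 measured B cell markers, given because Rgs1 and Rgs13 are prominent in B cells, summed to 346 to 358 in Ly-6C-negative and 354 to 358 in Ly-6C-positive cells, with Cd79a at 5.29 against 5.26 and Ms4a1 at 4.27 against 4.17. Plasma cell markers summed to 398 to 413 against 387 to 402, NK cell markers to 234 to 254 against 247 to 256, and CD8 markers to 268 to 336 against 302 to 352. Monocyte, macrophage and neutrophil markers summed to 378 to 384 against 367 to 387 and dendritic cell markers to 235 to 249 against 239 to 258. Erythroid genes summed to 133 to 151 against 135 to 146, stromal and endothelial genes to 1257 to 1430 against 1232 to 1365, and the T cell list to 25761 to 27525 against 26037 to 27366. Linear sums lean on the brightest gene of a list and do not weigh its markers equally. That gene was Pecam1 for the stromal and endothelial list, at 9.93 against 9.86, and Xbp1 for plasma cells, at 8.17 against 8.09. For the memory and effector list it was Lgals1, at 10.23 against 10.49.

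The genes whose values over the 6 arrays were most like those of Rgs3 and Rgs16 were searched among the 9969 genes above the median level. Nearest to Rgs16 were Dnmt3a, a DNA methyltransferase gene, with a Pearson r of 0.993, Zfp101 with 0.991, Ikzf2, which encodes Helios, with 0.988, Polg2 with 0.985 and Ewsr1 with 0.983. Nearest to Rgs3 were AI504432 and Jarid2, each with 0.995, Sypl with 0.994, A530021J07Rik with 0.992 and Il2rb, a cytokine receptor chain gene, with 0.990. Rgs3 and Rgs16 gave 0.971 with each other. These coefficients over 6 arrays in 2 groups largely follow the group difference, and with so many genes searched high values arise easily, so they are descriptions with no test.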

How the data were processed

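The table the authors deposited gives log2 values for 28853 probe sets and 6 mouse arrays from Affymetrix. Per the labels' protocols, 50 ng of total RNA was amplified and 5 µg of cDNA was labelled with biotin. RMA and Partek are named in the submitters' processing notes, without versions. RMA corrects background, quantile-normalizes the arrays and summarises probe sets, so global shifts are removed and dim genes are compressed. The sources used here give neither the chip description nor the genome build.

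Of the probe sets 21789 had 1 symbol in the platform annotation, 1621 had several and 5443 were not listed. The single-symbol ones gave 19938 genes by the highest mean, named by Entrez ID where it matched. The model was limma's (version 3.58.1, R 4.3.3; lmFit, eBayes, 2-sided, 5.56 prior degrees of freedom), fitted on all genes without a filter on low values and with Benjamini-Hochberg adjustment over them and a threshold of 0.05. The steps were also tested on simulated data, with planted changes larger than the difference of any member. That test therefore does not cover changes of the members' size. Figures were drawn with matplotlib 3.10.9.

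Across genes, the deviations of same-numbered arrays had a correlation of 0.129, 0.128 and 0.107, all above the bound of 0.1 set for reading the numbers as pairs. Between arrays of different numbers the correlation lay from -0.107 to -0.011. Deviations within a group sum to 0, so positive values for the same number push these below 0, and they add no separate evidence. The labels do not state this pairing. The fit as reported did not use it, and the replicate block is given as an alternative.

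The genes named are the members, the other Rgs genes, from each list those past the threshold or otherwise up to 4 with the smallest p, and for Rgs3 and Rgs16 the 5 genes with the highest Pearson r. Further list members printed, among them Gnai2, Ccr7 and Foxp3, were chosen after their values were seen. Members and lists were chosen with earlier results of these data known. The alternatives were the replicate block, leaving out each array, dropping dim genes, a second quantile normalization, subtracting array medians, averaging probe sets, every probe set, trend and robust settings, array weights and an adjusted p of 0.1.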

Additional observations from a re-analysis of the deposited data

How the results depend on the processing

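No member passed the limma threshold over all genes with the replicate block, a second quantile normalization, probe sets averaged, every probe set, dim genes dropped, trend and robust settings or any single array left out. Rgs3 and Rgs16 passed, making 2 members, with array medians subtracted, with array weights and at an adjusted p of 0.1. Array weights allow arrays to differ in precision. Subtracting medians added 0.023 to the difference of every gene. The difference became 0.43 for Rgs3 and 0.42 for Rgs16, with standard errors of 0.066 and 0.063. All genes called numbered 29 as reported, 41 with the replicate block, 54 with array weights, 45 with every probe set, and 5 to 47 with an array left out. The median difference of the measured members was 0.11 as reported and with the replicate block, 0.16 without dim genes, where Rgs18 was not tested, and 0.037 to 0.20 with an array left out. Rgs19 turned from -0.0075 to 0.016 with array medians subtracted and lay between -0.064 and 0.034 with an array left out. Genes of the related lists past the threshold numbered 8 as reported, 11 with the replicate block and 2 to 11 with an array left out. The replicate block changed no member's call. The number of arrays limits these values, and no measure of background was analysed here.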
